A study of Mus musculus with 6 samples.

Results

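The Ikaros family consists of 5 zinc finger transcription factors, Ikaros (Ikzf1), Helios (Ikzf2), Aiolos (Ikzf3), Eos (Ikzf4) and Pegasus (Ikzf5), and its messenger RNA was followed in B cells in which Ikaros itself carried a changed set of fingers. The members were taken by gene name from the deposited table, which held 5 of 5 names among 22098. Each name had 1 transcript row of the 26531 rows with values, so isoforms of Ikzf1 could not be compared with each other. Of the 5 members, 3 (Ikzf1, Ikzf3 and Ikzf5) passed the filter on low values and were among the 10322 genes tested, and 2 (Ikzf2 and Ikzf4) did not pass and are described by their values.

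B cells carrying IgM at their surface had been sorted out of bone marrow from C57BL/6 mice aged 6 weeks. There were 6 libraries of poly(A)-enriched RNA, 2 from wild-type mice, 2 from Ikaros_ZnF1-/- mice, which lack zinc finger 1 of Ikaros, and 2 from Ikaros_ZnF4-/- mice, which lack zinc finger 4. No Cre or transgene is named in the labels, and they do not say whether the replicates of a genotype came from different animals. The 2 libraries of each mutant differed in the sex markers given below, so they did not come from the same animal. A p-value covers the spread between libraries, which may be technical for the wild-type pair. Values are RPKM, a read density per kilobase that is scaled to library size, which are per length and so allow levels of different genes to be compared. Fold changes are on the scale log2(RPKM + 0.5).

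Ikaros proteins bind DNA through a group of N-terminal C2H2 zinc fingers and pair with each other through C-terminal fingers, so that Ikaros, Aiolos and Helios can form mixed dimers at the same genes. Ikaros is needed for the formation of lymphocytes, and Aiolos is most abundant in later B cell stages. The inner N-terminal fingers hold the core DNA sequence, and the outer ones, ZnF1 and ZnF4, act on some target genes more than on others.

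The parts of Ikzf1 that differ between the groups were located in the GENCODE M21 transcript that matches the deposited RefSeq row, on the GRCm38 assembly. A search of its reading frame for the finger pattern (cysteine, cysteine, histidine and then histidine or cysteine) found 6 fingers in a protein of 515 residues, 4 N-terminal and 2 C-terminal. The 4 N-terminal finger sequences are shown because the mutants differ from wild type in the first and the last of them; they are written 5′ to 3′ on the plus strand, which is the coding strand, with the codons of the 4 pattern positions in capitals.
Ikzf1 ZnF1, chr11:11748505-11748567: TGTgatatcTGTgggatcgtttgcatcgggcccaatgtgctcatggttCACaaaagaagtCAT
Ikzf1 ZnF2, chr11:11754024-11754086: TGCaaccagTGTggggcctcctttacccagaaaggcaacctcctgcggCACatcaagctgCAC
Ikzf1 ZnF3, chr11:11754108-11754170: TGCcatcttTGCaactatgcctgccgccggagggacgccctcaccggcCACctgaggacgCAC
Ikzf1 ZnF4, chr11:11758212-11758274: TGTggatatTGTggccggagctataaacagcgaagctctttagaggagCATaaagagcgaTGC

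Each of these fingers lay inside a single coding exon. ZnF1 was in exon 4 of this transcript, of 261 bases or 87 codons, ZnF2 and ZnF3 shared exon 5, of 168 bases, and ZnF4 was in exon 6, of 123 bases or 41 codons. Exons 4 and 6 hold whole numbers of codons, so a transcript without either exon keeps its reading frame. They make up 5.05% and 2.38% of the 5171 bases of the deposited Ikzf1 row. If such an exon had no reads, the RPKM of the row would be lower by 0.07 (exon 4) or 0.03 (exon 6) on the log2 scale at the same number of transcripts. A row of this kind cannot show whether the exon was missing, so Ikzf1 RPKM does not check the genotypes.

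**Figure D1:**
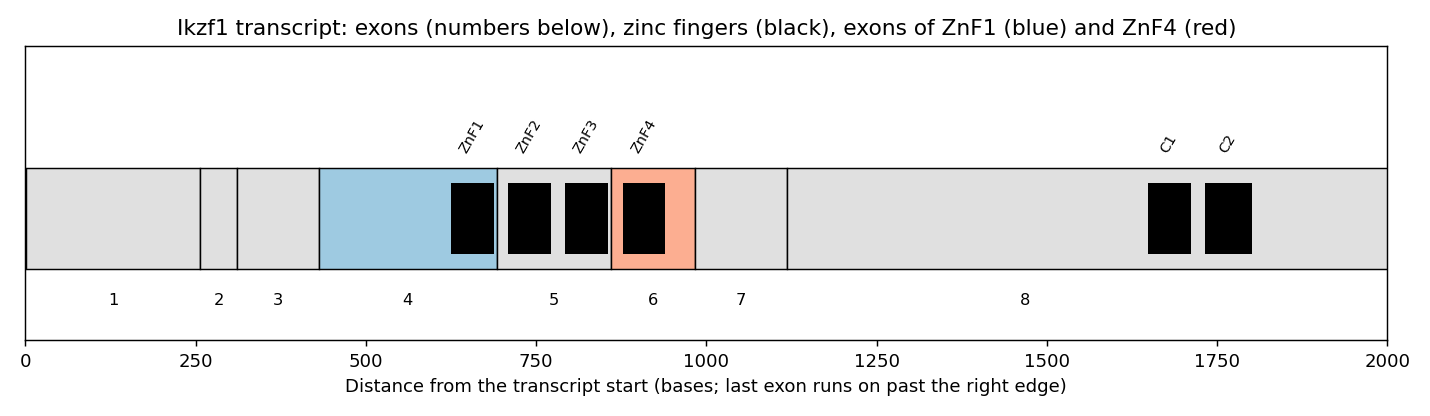
Map of the Ikzf1 transcript with distance from the transcript start in bases on the x axis, exons as boxes numbered below, zinc fingers in black (C1 and C2 are the C-terminal fingers) and the exons of ZnF1 and ZnF4 in blue and red. ZnF1 and ZnF4 lie in separate exons of 261 and 123 bases, and exon 8, which holds both C-terminal fingers, is shown only in part.

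Aiolos, the most abundant member in these cells, has the same arrangement of fingers, and its ZnF1 and ZnF4 are shown for comparison with those of Ikaros. Both are on the minus strand of the same chromosome and are written 5′ to 3′ in the coding direction.
Ikzf3 ZnF1, chr11:98490336-98490398: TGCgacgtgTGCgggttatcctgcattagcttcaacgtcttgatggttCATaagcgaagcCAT
Ikzf3 ZnF4, chr11:98485611-98485673: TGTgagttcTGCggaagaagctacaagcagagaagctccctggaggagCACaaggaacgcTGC

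Over the 63 bases of each finger, Ikzf3 shared 40 with Ikzf1 in ZnF1 (63.5%), 51 in ZnF2 (81%), 47 in ZnF3 (74.6%) and 45 in ZnF4 (71.4%). In ZnF1, Ikzf2 shared 84.1% and Ikzf4 77.8% of bases with Ikzf1, so Aiolos had the lowest share among these 3 paralogs for that finger. In ZnF4 the 3 paralogs lay between 71.4% and 74.6%. Pegasus had a different layout, with 3 N-terminal and 2 C-terminal fingers, 5 in all, and its N-terminal fingers were not aligned with those of Ikaros.

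The libraries had the profile of B cells, with a summed RPKM of 6 B cell markers between 4482 and 5398. The 8 T cell markers summed to 18.2 to 25.4 RPKM. Most of it came from Lck (11.2 to 19.9 RPKM) and Foxp3, the regulatory T cell factor gene (2.9 to 3.9 RPKM). The CD3 subunit genes Cd3d, Cd3e and Cd3g lay between 0.2 and 0.8 RPKM. Cd4 and Cd8a were highest in the ZnF1 libraries, at 4.2 and 4.5 RPKM and at 1.2 and 1.5 RPKM. In the other 4 libraries they were at most 1.4 and 0.2 RPKM. Lck did not share this order, at 14.8 and 11.2 RPKM in ZnF1 and 17.4 and 19.9 RPKM in wild-type libraries. The sum of all 8 T cell markers was 25.4 and 23.6 RPKM in ZnF1 and 23.7 and 25.1 RPKM in wild-type libraries. RNA of granulocytes and monocytes was present in all libraries: of 14 markers, 13 were in the table, none was listed at 0, and their summed RPKM was 457 and 729 in wild type, 1449 and 7721 in ZnF1 replicates 1 and 2, and 1805 and 1989 in ZnF4 libraries. ZnF1 replicate 2 also stood apart by its 8 erythroid markers, which summed to 581 RPKM there and to 85.4 to 215.8 RPKM elsewhere. Wild-type replicate 1 stood apart by its 6 plasma cell markers, at 604 RPKM against 111 to 203.8 RPKM elsewhere. The 8 markers of NK and plasmacytoid dendritic cells summed to 113.7 and 120.3 RPKM in ZnF1 libraries and to 61.3 to 89.9 RPKM in the other 4. Most of this came from Bst2 (24.5 to 75.3 RPKM) and Tcf4 (20.9 to 32.7 RPKM), and Tcf4 was highest in the ZnF4 libraries. Siglech was highest in the ZnF1 libraries, at 5.3 and 7.2 RPKM. Nkg7 and Gzma had 2.5 and 1.2 RPKM in ZnF1 replicate 1, 2.5 and 1.3 in wild-type replicate 2, and 8.9 and 4.6 in ZnF1 replicate 2. Xist, transcribed from the silenced X chromosome of females, lay between 39.6 and 66.8 RPKM in 4 libraries. The other 2 libraries, replicate 2 of each mutant, had Xist at 0. The Y-linked gene Ddx3y had 20.4 RPKM in ZnF1 replicate 2 and 16.6 RPKM in ZnF4 replicate 2, and 0 in the 4 libraries with Xist.

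Ikzf3 and Ikzf1 were by far the most abundant members, Ikzf5 was expressed at a low level, and Ikzf2 and Ikzf4 were at or near 0. By mean RPKM over the 6 libraries, Ikzf3 (282 RPKM) ranked 82nd and Ikzf1 (209 RPKM) ranked 120th of 22098 gene names, while Ikzf5 (4.38 RPKM) ranked 8008th. Ikzf3 exceeded Ikzf1 within each of the 6 libraries. Within a genotype their ranges overlapped only in the ZnF4 mutant, where Ikzf1 in replicate 1 (287.3 RPKM) was above Ikzf3 in replicate 2 (280.9 RPKM). Ikzf5 was far from its neighbours on either side in the order, and Ikzf2 and Ikzf4 overlapped in their ranges.

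**Figure D2:**
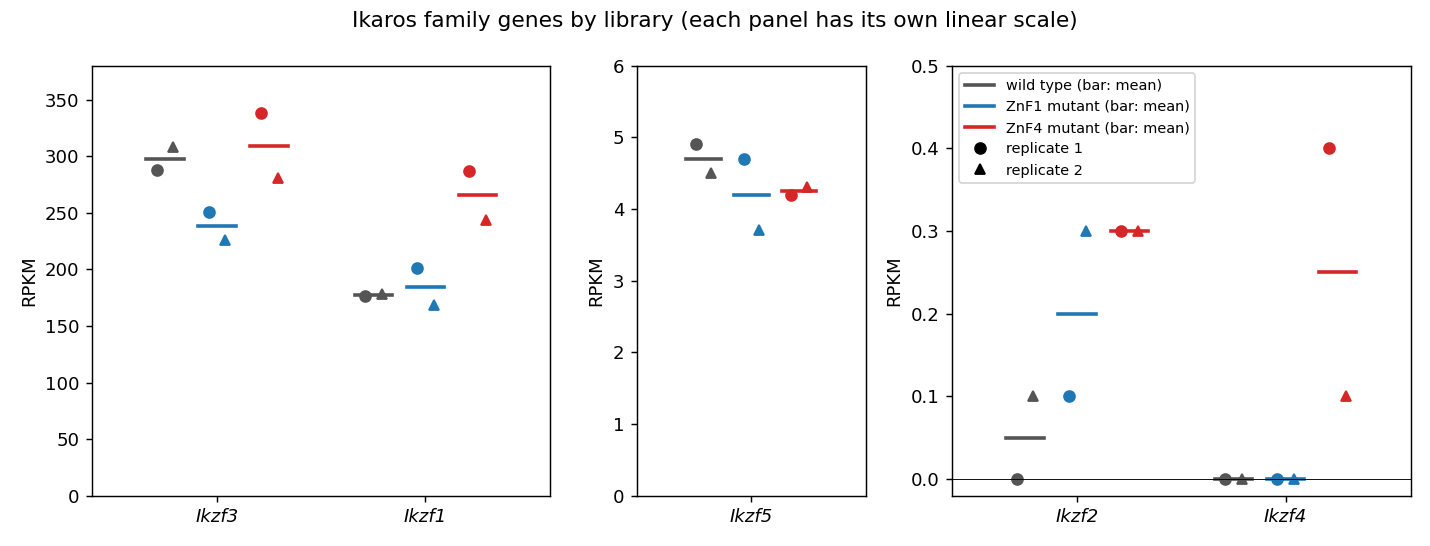
RPKM of the 5 Ikaros family genes in each library, on 3 linear scales for abundant, low and barely detected members; circles are replicate 1, triangles replicate 2, and bars the mean of 2 libraries. Both ZnF4 values of Ikzf1 lie above all others of that gene, both ZnF1 values of Ikzf3 lie below all others of that gene, and Ikzf2 and Ikzf4 do not exceed 0.4 RPKM.

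Ikzf1, which encodes Ikaros, had 176.5 and 178.6 RPKM in the wild-type libraries. ZnF1 replicates 1 and 2 had 201.1 and 168.4 RPKM, and ZnF4 replicates 1 and 2 had 287.3 and 244.0 RPKM. Both ZnF4 libraries lay above the other 4, and the ZnF1 libraries lay on either side of wild type. The wild-type mean was 178 ± 1.48 RPKM, the ZnF1 mean 185 ± 23.1 RPKM and the ZnF4 mean 266 ± 30.6 RPKM (SD, n = 2 each).

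The ZnF4 mutant had 1.49 times the wild-type level of Ikzf1, a log2 fold change of 0.58 with a 95% interval for this gene alone from 0.21 to 0.94 (SE 0.16). It did not pass after Benjamini-Hochberg adjustment over the genes tested with limma (adjusted p = 0.111), where 3.2% of the 10322 genes passed. As large a fold change in either direction was found for 11.9% of the genes, and by unadjusted p Ikzf1 ranked 657th of the 10322. Both ZnF4 libraries were above both wild-type libraries for Ikzf1, as for 23.1% of the genes tested. The ZnF1 mutant gave a log2 fold change of 0.05 (95% interval -0.31 to 0.42, limma adjusted p = 0.94), an interval that leaves room for a level between 0.81 and 1.33 times that of wild type.

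The mutants were also compared directly. Ikzf1 in the ZnF1 mutant was lower than in the ZnF4 mutant by a log2 fold change of -0.52 (95% interval -0.89 to -0.16), which did not pass either (limma adjusted p = 0.114), where 4.78% of genes passed. The ZnF1 libraries were both below the ZnF4 libraries for Ikzf1 and for Ikzf3, as for 21% of genes. With the exon of the missing finger taken as without reads, an alternative chosen after seeing the data, the log2 fold change of Ikzf1 was 0.61 for the ZnF4 mutant (limma adjusted p = 0.0956) and 0.13 for the ZnF1 mutant, and neither passed.

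Granulocyte and monocyte marker sums were above wild type in all 4 mutant libraries. ZnF1 replicate 2, with the highest of these sums (7721 RPKM) and of the erythroid sums (581 RPKM), had the lowest Ikzf1 value of the 6 libraries, and the part of such RNA in the Ikzf1 values was not tested. Of the ZnF4 libraries, replicate 1, with Xist RNA, had the higher Ikzf1 value. Replicate 2, with Xist listed at 0, was above all wild-type and ZnF1 libraries. Both wild-type libraries had Xist RNA, so a term for sex rests on the mutant libraries alone, and the part of sex in wild type was not tested. With a term for sex the log2 fold change of Ikzf1 in the ZnF4 mutant was 0.70 (limma adjusted p = 0.119). In these sorted populations, a change in the kinds of B cell present and a change of RNA per cell cannot be told apart.

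Ikzf3, which encodes Aiolos, the partner of Ikaros in mature B cells, had 287.9 and 307.9 RPKM in wild type. It had 251.1 and 226.3 RPKM in ZnF1 replicates 1 and 2, and 337.8 and 280.9 RPKM in ZnF4 replicates 1 and 2. The ZnF1 libraries were the lowest of the 6, and the ZnF4 libraries lay on either side of the wild-type pair. The means were 298 ± 14.1, 239 ± 17.5 and 309 ± 40.2 RPKM in that order (SD, n = 2 each).

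For Ikzf3 the ZnF1 mutant had 0.801 times the wild-type level, a log2 fold change of -0.32 (SE 0.16, 95% interval -0.69 to 0.05), which did not pass (limma adjusted p = 0.501), where 0.271% of genes passed. Both ZnF1 libraries were below both wild-type libraries, as for 20.3% of the genes tested. The ZnF4 mutant gave 0.05 (95% interval -0.32 to 0.42, limma adjusted p = 0.906), and the ZnF1 mutant against the ZnF4 mutant gave -0.37 (95% interval -0.74 to 0.002, limma adjusted p = 0.253). None of these differences of Ikzf3 passed the test. The lower Ikzf3 value of the ZnF1 mutant was in replicate 2, the library with the highest granulocyte and monocyte and erythroid marker sums and with Xist at 0, and the part of these in it was not tested. Without that library the log2 fold change was -0.25 (limma adjusted p = 0.982).

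**Figure D3:**
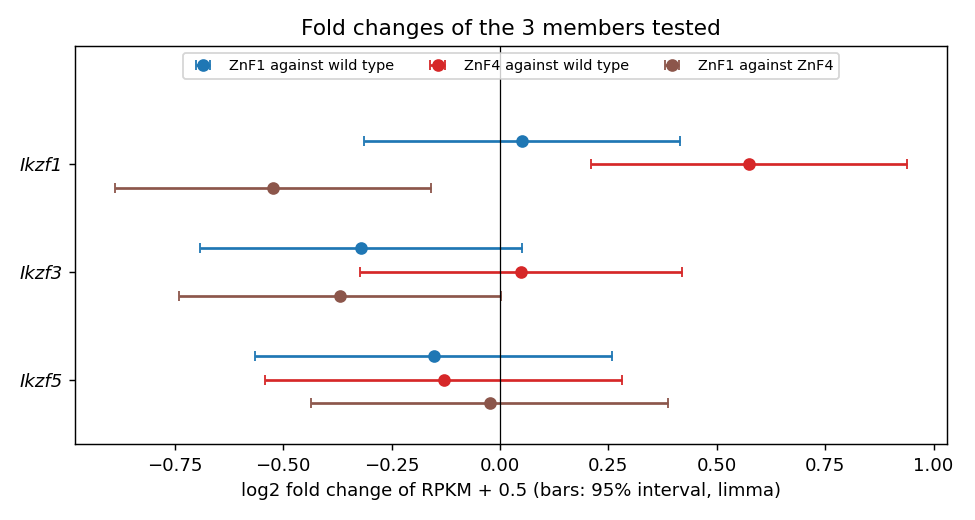
Log2 fold changes of Ikzf1, Ikzf3 and Ikzf5 in the 3 comparisons, with 95% intervals from limma that are not adjusted for the number of genes. For Ikzf1 the interval of the ZnF4 mutant against wild type runs from 0.21 to 0.94 and that of ZnF1 against ZnF4 from -0.89 to -0.16; all other intervals include 0.

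Ikzf5, which encodes Pegasus, the most divergent member of the family, had 4.9 and 4.5 RPKM in wild type, 4.7 and 3.7 RPKM in ZnF1 libraries and 4.2 and 4.3 RPKM in ZnF4 libraries. Both ZnF4 values lay just below both wild-type values, as for 27.2% of the genes tested, and the ZnF1 pair spanned the ZnF4 pair. For the ZnF1 mutant the log2 fold change was -0.15 (95% interval -0.56 to 0.26, limma adjusted p = 0.806) and for the ZnF4 mutant -0.13 (95% interval -0.54 to 0.28, limma adjusted p = 0.76). Neither passed, and the intervals reach from 0.676 to 1.22 times the wild-type level.

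Ikzf2, which encodes Helios, known from regulatory T cells and blood progenitors, was listed at 0 and 0.1 RPKM in wild type, at 0.1 and 0.3 RPKM in the ZnF1 libraries and at 0.3 RPKM in both ZnF4 libraries. Ikzf4, which encodes Eos, also known from regulatory T cells, was listed at 0 in the wild-type and ZnF1 libraries and at 0.4 and 0.1 RPKM in the ZnF4 mutant. The authors rounded values to steps of 0.1, so these values are at most 4 steps above 0, and no fold is given. Without the filter on low values neither gene passed in any comparison (limma adjusted p between 0.414 and 1 over 22098 genes). Of 6 progenitor markers, summed RPKM was 16.9 and 14.7 in wild-type, 13.5 and 21.6 in ZnF1 and 27.3 and 20.9 in ZnF4 libraries, with none listed at 0. Il7r was the largest of them in every library (8.5 to 19.9 RPKM), and the others did not share an order. Kit was highest in ZnF4 libraries (6 and 6.6 RPKM), where Meis1 was lowest (0.1 RPKM in both). Flt3, Cd34 and Gata2 were highest in ZnF1 replicate 2. The part of the progenitor and T cell markers in the Ikzf2 and Ikzf4 values was not tested.

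The balance between Ikaros and Aiolos messenger RNA was then taken within each library, a ratio that does not depend on library scaling and that was chosen after the values were seen. Ikzf1 stood at 0.613 and 0.58 of the Ikzf3 level in wild type. The share was 0.801 and 0.744 in ZnF1 libraries and 0.851 and 0.869 in ZnF4 libraries. All 4 mutant libraries were above both wild-type libraries, and both ZnF4 libraries were above both ZnF1 libraries. Relative to wild type the log2 ratio was higher by 0.37 with ZnF1 missing and by 0.53 with ZnF4 missing.

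Different means lay behind the ratio in each mutant. Relative to wild type, the ZnF1 means were 7.2 RPKM higher for Ikzf1 and differed by -59.2 RPKM for Ikzf3. The ZnF4 means were 88.1 RPKM higher for Ikzf1 and 11.45 RPKM higher for Ikzf3. The ratio to Ikzf3 was above wild type in both ZnF1 libraries for 67.4% of all genes tested, so such a shift was common there, and in both ZnF4 libraries for 15.4%. It was lower in both ZnF1 than in both ZnF4 libraries for 5.76%. With 2 libraries against 2, an exact permutation test over libraries cannot give a two-sided p below 0.333, and none is given for this ratio.

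**Figure D4:**
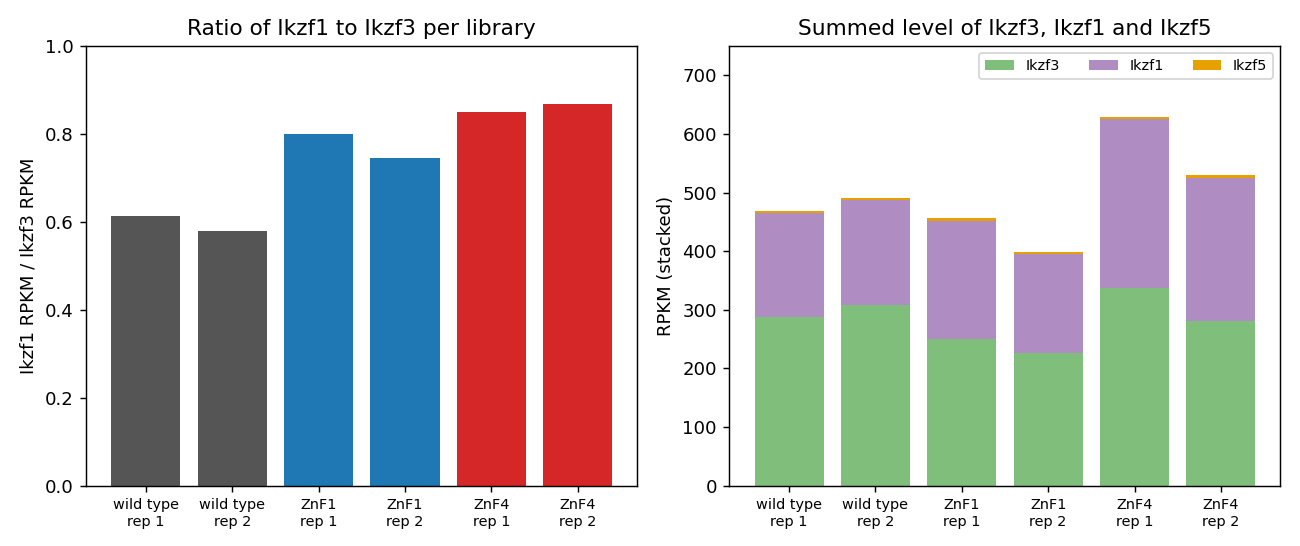
Left, the RPKM of Ikzf1 divided by that of Ikzf3 in each library; right, the stacked RPKM of Ikzf3, Ikzf1 and Ikzf5 in each library. The ratio is 0.613 and 0.58 in wild type and between 0.744 and 0.869 in the 4 mutant libraries, while the sum is highest in the ZnF4 and lowest in the ZnF1 libraries.

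Summed over the 5 members, family RPKM was 469 and 491 in wild-type, 457 and 399 in ZnF1 and 630 and 530 in ZnF4 libraries. Both ZnF4 sums were the highest and both ZnF1 sums the lowest of the 6. With 2 libraries a genotype this has no test, and in the 4 directions given above between 20.3% and 27.2% of single genes were separated between a pair of genotypes. Ikzf1 made up 37.6% and 36.4% of the sum in wild-type, 44.0% and 42.2% in ZnF1 and 45.6% and 46.1% in ZnF4 libraries, and Ikzf3 made up most of the remainder in every library. Ikzf2 and Ikzf4 together made up at most 0.111% of the sum.

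**Figure D5:**
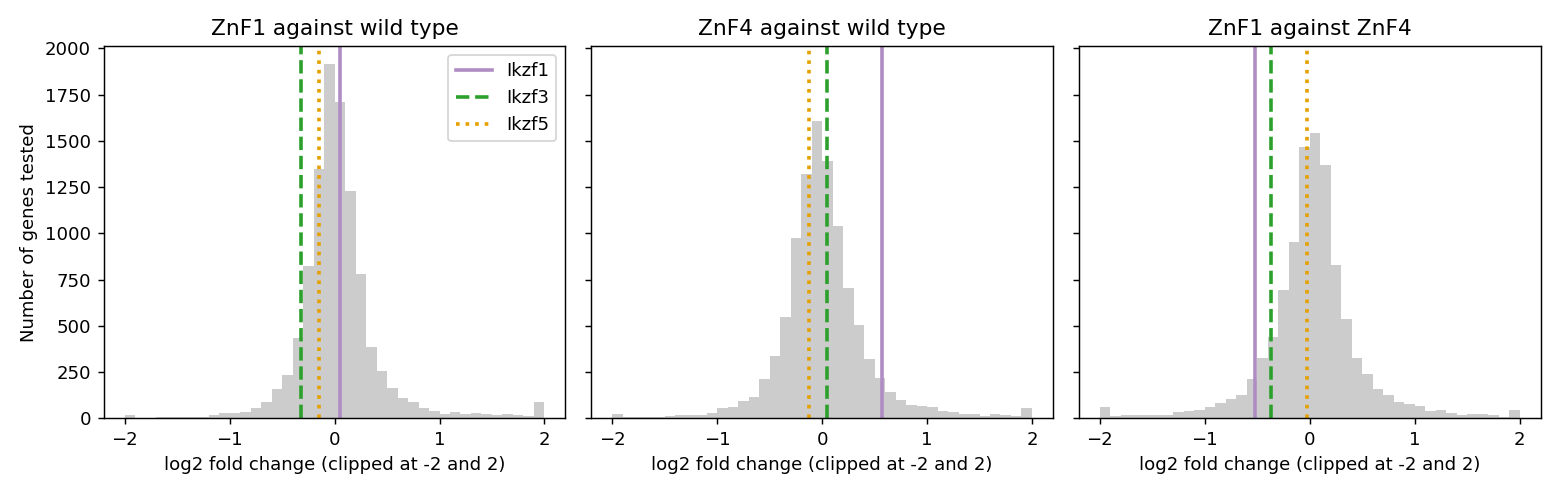
Number of tested genes by log2 fold change (clipped at -2 and 2) in the 3 comparisons, with vertical lines at Ikzf1 (solid), Ikzf3 (dashed) and Ikzf5 (dotted). Ikzf1 lies to the right of most genes with ZnF4 missing, at 0.58, and near the centre with ZnF1 missing, at 0.05.

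Genes with the profile most like each member over the 6 libraries were taken by the root mean square difference of centred log2 values, among genes with a mean of at least 10 RPKM. Nearest to Ikzf1 were Ppt1, which encodes a lysosomal thioesterase (0.07 log2 units), Zdhhc13, a palmitoyltransferase gene (0.11), and Trim24, a transcriptional cofactor gene (0.11), where the SD of Ikzf1 itself was 0.31. Ppt1 had 37.7 and 35.2 RPKM in wild-type, 38.8 and 36.7 in ZnF1 and 58.9 and 54.0 in ZnF4 libraries, so its ZnF4 libraries were also the highest. Nearest to Ikzf3 were Wdr81 (0.03), Zmiz1 (0.05) and the syntaxin gene Stx7 (0.06), with an SD of Ikzf3 of 0.21. Nearest to Ikzf5 were Calu, Atp6v0a2 and Cnih, all at 0.02 or 0.03, where the SD of Ikzf5 was 0.13. With 6 libraries and 5822 or more candidates, close profiles can arise for many genes.

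Partners of Ikaros in chromatin complexes showed no called change. Of 18 such genes, among them the NuRD subunits Chd4, Mta2 and Hdac1 and the corepressors Sin3a and Ctbp1, 17 were tested. None passed in any comparison, where 0.271%, 3.2% and 4.78% of all genes passed in the ZnF1, ZnF4 and direct comparisons. With ZnF1 missing, their median log2 fold change was 0.05 against -0.002 for all genes, with 10 of 17 above 0. With ZnF4 missing it was -0.19 against -0.02 for all genes, with 3 of 17 above 0 in the ZnF4 mutant. For ZnF1 against ZnF4 it was 0.16 against 0.03 for all genes, with 13 of 17 above 0.

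Enzymes that act on Ikaros family proteins, such as the casein kinase 2 subunits and Crbn, the substrate receptor through which thalidomide analogs degrade human Ikaros and Aiolos, gave no call either. Of 13 listed, 11 were tested and none passed in any of the 3 comparisons. Of all genes, 0.271%, 3.2% and 4.78% passed in the ZnF1, ZnF4 and direct comparisons. The medians were -0.09 with ZnF1 missing and -0.16 with ZnF4 missing, against -0.002 and -0.02 for all genes.

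Among 24 genes reported as targets of Ikaros or Aiolos, 21 were tested. This list, like the others here, was chosen with earlier results of these data known, so its counts are no test of the list. In the ZnF1 mutant none passed (median -0.13, against -0.002 for all genes). In the ZnF4 mutant 2 rose and 5 fell (median -0.34, against -0.02 for all genes), where 1.78% of all genes were called higher and 1.41% lower. The risers were the surrogate light chain genes Igll1 (log2 fold change 3.75, limma adjusted p = 0.00549) and Vpreb1 (2.64, limma adjusted p = 0.0116). Of the 5 that fell, the Notch target Dtx1 had -1.80, the interleukin 2 receptor gene Il2ra -2.36 and the recombinase gene Rag1 -2.18. The others were the transcription factor gene Foxo1 (-0.80) and the cyclin D3 gene Ccnd3 (-0.99). Limma adjusted p of the 5 lay between 0.00549 and 0.0492. Each of the genes that rose or fell also lay outside the wild-type pair, in the same direction, in both ZnF1 libraries. Igll1 had 18.5 and 28.6 RPKM in ZnF1 and 5.7 and 13.7 in wild-type libraries, and Il2ra 5.8 and 3.3 against 9.9 and 13.1. The ZnF1 replicates were over 2-fold apart for 460 genes, the wild-type pair for 112 and the ZnF4 pair for 72. The lack of calls in the ZnF1 mutant thus does not show that these genes changed only in the ZnF4 mutant. In this list the rule for named genes does not take Vpreb1, Rag1 or Foxo1, which were added after their values were seen.

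Ccnd3 had 48.7 and 53.3 RPKM in wild-type, 45.6 and 47.4 in ZnF1 and 24.0 and 27.0 in ZnF4 libraries, so the ZnF4 libraries stood apart below the other 4. Between the mutants, 5 of the 21 were called higher with ZnF1 missing than with ZnF4 missing (Dtx1, Dntt, Ccnd3, Rag1 and Bcl6) and 2 lower (Igll1 and Vpreb1), where 2.08% and 2.69% of all genes were called in these directions. Dntt, the terminal transferase gene, had the largest difference of the 7, with 13.5 and 17.7 RPKM in ZnF1 and 0.2 and 0.3 in ZnF4 libraries (log2 fold change 4.41, limma adjusted p = 0.00946). In wild type Dntt was at 2.1 and 11.1 RPKM, and it was not called against wild type in either mutant. Rag1, Bcl6 and Vpreb1 were again added after their values were seen.

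Other transcription factors of the B lineage were counted beside the family. Of 19 tested, none passed in the ZnF1 mutant, 2 fell in the ZnF4 mutant and 17 did not pass there, where 1.41% of all genes were called lower. The median log2 fold change was -0.27 in the ZnF4 mutant, against -0.02 for all genes. Those that fell were Foxo1, which is on both lists, and Sfpi1, now named Spi1, which encodes PU.1. Sfpi1 had 78.3 and 78.8 RPKM in wild-type, 76.8 and 80.8 in ZnF1 and 45.6 and 44.7 in ZnF4 libraries, a log2 fold change of -0.79 (limma adjusted p = 0.0133). It was also the 1 factor called between the mutants, higher in the ZnF1 mutant by 0.80 (limma adjusted p = 0.0108), where 2.08% of all genes were called in this direction. Of the 8 genes named here as changed in the ZnF4 mutant, Igll1 still passed without either wild-type library, the other 7 did not, and none passed by limma without either ZnF4 library (over all genes, 0 calls in both fits, with 1551 and 1219 genes at an unadjusted p under 0.05). Foxo1 did not pass with a term for sex (limma adjusted p = 0.0987). Between the mutants, Dtx1, Dntt, Ccnd3, Igll1 and Sfpi1 passed whichever wild-type or ZnF1 library was left out. Bcl6 did not pass with any of these 4 libraries left out (limma adjusted p between 0.0564 and 0.0599), Rag1 did not pass without a wild-type library (0.067 and 0.0671), and Vpreb1 did not pass without ZnF1 replicate 2 (0.0899). None of the 8 passed without a ZnF4 library. The granulocyte and monocyte marker sums given above were higher in both ZnF4 than in both wild-type libraries, and their part in these calls was not tested.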

How the data were processed

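RNA of sorted cells was sequenced by the submitters, and the deposited values are RPKM per RefSeq transcript, rounded by the authors to steps of 0.1. Mapping was to mm9, with TopHat and bedtools, per the submitters' processing notes; versions, the counting rule and strandedness are not given in the sources used here. Of the nonzero values of rows under 200 bases, those whose rounding was small against a read at the depth tried were used. At the best depth, at most 52.8% of them could be placed on whole reads within the rounding. Counts were therefore not recovered, depth is unknown and no counting interval is given. RPKM times kilobases summed to 77.5% to 83.3% of the scaling total per library. All 6 value columns were used, and 1 row without values was dropped.

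The row with the highest mean RPKM stood for each gene name, genes with a mean of at least 1 RPKM were tested, and log2(RPKM + 0.5) was fitted with limma 3.58.1 in R 4.3.3 (trend, 1 coefficient per genotype, all 6 libraries, 3 residual degrees of freedom). Tests are two-sided with Benjamini-Hochberg adjustment, and 0.05 was the limit on adjusted p for a call. On simulated data of 10322 genes, the share of genes changed by 1 log2 unit that was recovered was 71.6% for ZnF1 against wild type (13 false calls), 91% for ZnF4 against wild type (20) and 77.6% for ZnF1 against ZnF4 (13). The simulated noise was independent and normal, of the fitted size, around 1 mean per gene. It held none of the marker and sex differences between the real libraries, so the shares do not give the recovery in these data. No change smaller than 1 log2 unit was simulated. The planned comparison of Ikzf isoform rows was not made, since each member had 1 row. Finger sequences come from GENCODE M21 transcripts on GRCm38; no mm9 coordinates are used, and RefSeq protein sequences were not used here. Named genes were the 5 members, the 3 most alike genes of each tested member, and up to 4 called members of each list per comparison. The members, the lists and the tests were chosen with earlier results of these data known. Alternatives covered the pseudocount, the filter, quantile normalization, pairwise fits, a replicate block, a sex term (male where Xist was at 0), transcript rows and leaving out each library.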

Additional observations from a re-analysis of the deposited data

How the results depend on the processing

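Where a library was left out, the remaining library of its genotype was taken to vary like the others. None of the 9 log2 fold changes of Ikzf1, Ikzf3 and Ikzf5 passed under any of the 14 or 15 alternatives run for each. For Ikzf1 in the ZnF4 mutant the value lay between 0.46 and 0.70 (limma adjusted p between 0.0668 and 0.406), and without single libraries between 0.46 and 0.69. Of the 9 values, 4 changed sign, each only where 1 library was left out. Ikzf1 in the ZnF1 mutant lay between -0.076 (without ZnF1 replicate 1) and 0.18. Ikzf3 in the ZnF4 mutant lay between -0.084 (without ZnF4 replicate 1) and 0.18. Ikzf5 lay between -0.31 and 0.00107 (without ZnF1 replicate 2) in the ZnF1 mutant and between -0.18 and 0.13 (without ZnF1 replicate 2) in the direct comparison.

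Called genes in the ZnF1 mutant numbered 28, with 104 without the filter, 13 with quantile normalization, and by limma 0 in the fit of only those 2 genotypes (1053 at an unadjusted p under 0.05) or with a term for sex (863); without single libraries they ranged from 0 (between 609 and 1060 at an unadjusted p under 0.05 where none was called) to 512. In the ZnF4 mutant 330 became 594 in the pairwise fit and 171 with a term for sex, and ranged from 0 (1219 and 1551 at an unadjusted p under 0.05 by limma without ZnF4 replicates 2 and 1) to 591. In the direct comparison 493 became 327 without the filter and 249 in the pairwise fit, and ranged from 0 (1689 at an unadjusted p under 0.05 by limma) to 814. Without the filter, 2 of 104 (ZnF1), 47 of 269 (ZnF4) and 94 of 327 (direct) called genes were also called with it. The cause of these changes was not tested. Replicate numbers are not said to pair libraries, and deviations of equally numbered libraries correlated across genes with r of 0.28, -0.0327 and 0.208; with the replicate block the counts were 27, 327 and 529, and no member's call changed. Isoform ratios and the segment between isoform rows were not run, since each member had 1 row. Depth is unknown, and steps of 0.1 RPKM limit Ikzf2 and Ikzf4.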
